A study of Homo sapiens with 6 samples.

Results

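The inhibitor of apoptosis genes examined here were BIRC2, BIRC3, BIRC5, BIRC6 and XIAP, together with DIABLO, the mitochondrial antagonist of the family. These 6 genes were taken by name from a fixed list and found among the 60612 Ensembl genes of each table by their GENCODE symbols. Family members carry the zinc-binding BIR domain, and several of them bind caspases, the proteases that carry out apoptosis. XIAP inhibits caspases directly, whereas BIRC2 (cIAP1) and BIRC3 (cIAP2) are ubiquitin ligases of the TNF receptor complex that restrain the noncanonical NF-kB kinase encoded by MAP3K14. BIRC5 (survivin) acts mainly in mitosis as a subunit of the chromosomal passenger complex, and BIRC6 is a very large ubiquitin-conjugating enzyme. On release from mitochondria, the product of DIABLO binds BIR domains and displaces caspases from them.

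RNA was sequenced from HCT116, an established human colorectal carcinoma cell line. The LV-NC group (3 libraries) carried a control lentivirus and the LV-SNORA28 group (3 libraries) a lentivirus that overexpresses the small nucleolar RNA SNORA28, so both groups carried a viral vector. The methods of the study describe puromycin selection for cells stably overexpressing SNORA28. They do not say whether the cells sequenced here, collected after infection, were selected. Both groups came from this single line, and neither irradiation nor drug treatment was given in the labels of these libraries. The comparison asks how raised SNORA28 altered transcript levels. The study followed survivin as a downstream gene by another assay, qRT-PCR. There it reported that SNORA28 positively regulated survivin and that a STAT3 inhibitor lessened the rise. The labels do not say that the libraries of a group came from separate cultures, so p-values measure only the spread between these libraries, which may be technical.

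SNORA28 itself, on GRCh38 chromosome 14 from 103337849 to 103337974 on the plus strand, within EIF5, was checked first. The 3 control libraries held 0.92, 0 and 0.64 FPKM of it (mean 0.52). The 3 overexpressing libraries held 15.01, 13.66 and 15.2 FPKM (mean 14.6). With 1 added to FPKM, limma estimated a rise of 3.41 on the log2 scale (SE 0.23, adjusted p = 0.00228). With 0.1 added instead, the estimate was 5.12, so its size depends on the value added. A rise was the purpose of the vector and serves here only as a check of the groups. The libraries were poly(A)-selected, and whether these values measure the mature small nucleolar RNA was not tested. FPKM gives the fragments of a gene relative to its transcript length and the mapped fragments of the library. The overexpressed RNA has the following sequence, with its ACA box in capitals, the element that gives the H/ACA class of small nucleolar RNAs its name.
SNORA28: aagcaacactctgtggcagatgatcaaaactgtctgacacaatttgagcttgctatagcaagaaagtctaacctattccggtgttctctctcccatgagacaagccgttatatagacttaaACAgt

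Between 24231 and 25771 genes were above 0 per library. The 37 mitochondrial genes held 42.7% to 47.7% of all FPKM in the LV-NC libraries and 35.9% to 38.3% in the LV-SNORA28 libraries. Epithelial markers summed to between 813 and 913 FPKM in LV-NC and between 850 and 897 FPKM in LV-SNORA28, and none of the 8 passed the test. Fibroblast markers summed to at most 4.52 FPKM, nearly all of it COL1A1, with COL1A2, DCN and LUM at 0 in every library. Blood cell and endothelial markers summed to at most 0.34 and 0.16 FPKM. In all, 12076 genes had a mean of at least 1 FPKM and were tested on the log2(FPKM + 1) scale, where changes of low genes come out too small. Of these, 8.91% had an adjusted p below 0.05 in limma, 6.81% higher (822 genes) and 2.10% lower (254 genes) in LV-SNORA28. After quantile normalization the split was 454 higher and 374 lower, and the median log2 fold change over all genes tested, 0.09 in the values as deposited, was close to 0.

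BIRC5 was the member with the clearest difference between the groups. It was on average at 6.42 FPKM in LV-NC and at 11.1 FPKM in LV-SNORA28. It just missed the adjusted threshold. BIRC2, BIRC3, BIRC6, XIAP and DIABLO overlapped between the groups and had intervals that included 0. Of the 5 members that could be tested above the filter, 0 had an adjusted p below 0.05, against 8.91% of all genes tested, and 1, BIRC5, had an unadjusted p below 0.05. XIAP was below the filter and was read from a fit of all 32761 genes above 0, in which 1.21% of genes passed and XIAP did not. The threshold of the study asks for a fold change above 1.5 and p below 0.05 before adjustment. In the limma fit used here, 1 of the 5 members passed it, again BIRC5, against 3.79% of all genes tested. The genes that pass in this fit need not be those the study called. Only BIRC5, 1 of 6 members, had groups of libraries that did not overlap, whereas 35.1% of all genes tested had such groups.

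**Figure D1:**
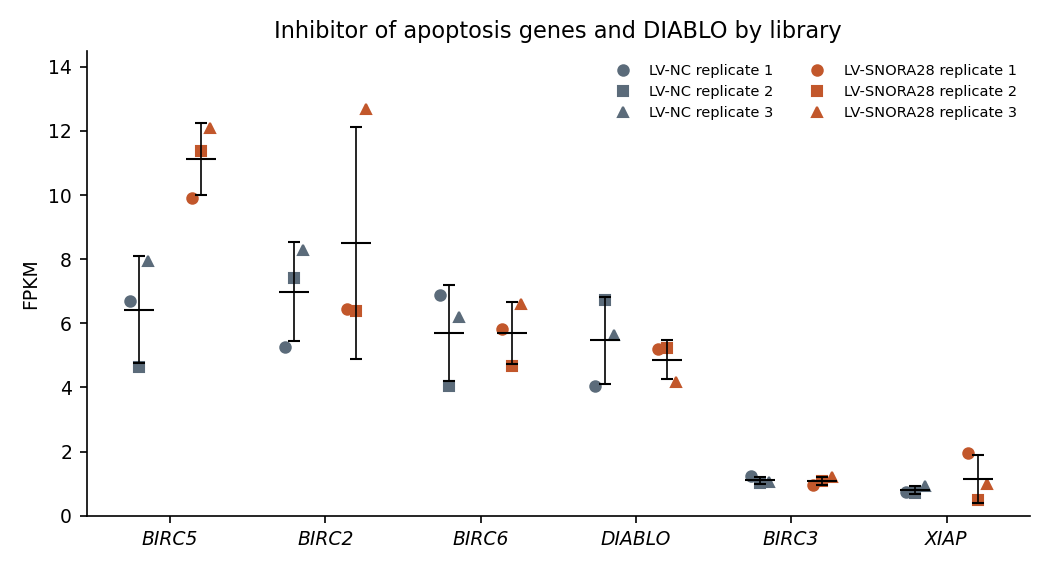
FPKM (y axis) of each member (x axis) in the 6 libraries, with LV-NC in grey and LV-SNORA28 in orange, the marker shape giving the replicate, the horizontal bar the mean and the error bar the SD (n = 3). BIRC5 was at 4.63 to 7.94 FPKM under LV-NC, against 9.9 to 12.09 FPKM under LV-SNORA28, while the other members overlapped.

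Because FPKM is scaled to length, the levels of the members can be set beside each other. In LV-NC the order of mean FPKM was BIRC2, BIRC5, BIRC6, DIABLO, BIRC3 and XIAP. The ranges of the first 4 overlapped from each gene to the next, so their order was within the spread between libraries. BIRC3 lay well below these 4, and XIAP, at 0.71 to 0.93 FPKM, lay just below BIRC3, at 1.03 to 1.23 FPKM. In LV-SNORA28 BIRC5 had the highest mean, yet its range still overlapped that of BIRC2, and XIAP and BIRC3 overlapped at the low end. The family genes outside the members were scarcely present. NAIP, a sensor of bacterial proteins, was at 0.49 to 0.68 FPKM, BIRC7 (livin) at 0.06 to 0.46 FPKM, and BIRC8, a copy of XIAP, was listed at 0 in all 6 libraries.

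BIRC5 (ENSG00000089685; GRCh38 chromosome 17, 78214186 to 78225636, plus strand) encodes survivin, which brings Aurora B kinase to centromeres and the spindle midzone. Its values were 6.7, 4.63 and 7.94 FPKM under LV-NC, against 9.9, 11.37 and 12.09 FPKM under LV-SNORA28. All 3 LV-SNORA28 libraries lay above the highest LV-NC library, and LV-NC replicate 2 was the lowest. LV-NC replicate 2 also had the highest mitochondrial share of FPKM, 47.7%, and the fewest genes above 0, 24231. Whether this bears on its BIRC5 value was not tested. The means were 6.42 ± 1.67 and 11.1 ± 1.12 FPKM (SD, n = 3). The log2 fold change was 0.73 (SE 0.17, 95% interval 0.31 to 1.15, limma adjusted p = 0.0510). Of all genes tested, 1.71% had a log2 fold change at least this high, and 9.17% an unadjusted p as small or smaller. Without LV-NC replicate 2 the log2 fold change on the log2(FPKM + 1) scale was 0.54, below the fold of 1.5 of the study, whereas the ratio of the mean FPKM with no pseudocount was 1.52. Scaled to an equal sum over genes outside the mitochondrial genome, the log2 fold change was 0.70 (limma adjusted p = 0.0648), and after quantile normalization it was 0.63 (limma adjusted p = 0.0716). With only the 6241 genes of at least 5 FPKM in the test, the adjusted p of the same fold change was 0.0387 in limma. No annotated gene overlaps BIRC5.

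The partners of survivin in the chromosomal passenger complex are AURKB, the kinase, INCENP, the scaffold, and CDCA8 (borealin). AURKB was at 18.13, 20.76 and 22.13 FPKM under LV-NC, against 24.7, 24.53 and 22.33 FPKM under LV-SNORA28, a log2 fold change of 0.22 (SE 0.09, limma adjusted p = 0.159). Its groups did not overlap but were separated by 1 close pair of libraries. INCENP and CDCA8 had log2 fold changes of 0.04 and 0.12 (limma adjusted p = 0.829 and 0.418), with overlapping groups. Set against the mean of these 3 partners within each library, BIRC5 stood at -1.46, -1.97 and -1.44 on the log2 scale in LV-NC and at -1.22, -0.98 and -0.87 in LV-SNORA28. The difference of the means was 0.60, with an exact two-sided permutation p of 0.1, the smallest that 3 against 3 libraries allow. BIRC5 was thus nearer to its partners in every LV-SNORA28 library than in any LV-NC library.

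The wider list of chromosomal passenger complex and G2/M genes held 33 genes, all tested, of which 11 rose, 0 fell and 22 did not pass. The share that rose was 33.3%, against 6.81% of all genes tested, and the median log2 fold change was 0.28 against 0.09. Among those that rose were PRC1, which bundles midzone microtubules (log2 fold change 0.99, limma adjusted p = 0.0292), and TOP2A, a DNA topoisomerase (0.65, limma adjusted p = 0.0127). CCNB1, the mitotic cyclin B1, rose from between 45.9 and 53.9 FPKM to between 73.08 and 74.28 FPKM (log2 fold change 0.52, limma adjusted p = 0.0128). ECT2, which drives cytokinesis, BUB1, a spindle checkpoint kinase, and AURKA, the kinase of spindle poles, rose by 0.48, 0.46 and 0.48 on the log2 scale (limma adjusted p = 0.0114, 0.0233 and 0.0247). MKI67, the proliferation marker Ki-67, varied widely, at 56.47, 24.52 and 45.17 FPKM under LV-NC, against 35.45, 47.72 and 43.16 FPKM under LV-SNORA28. It had a log2 fold change of 0.07 (limma adjusted p = 0.901). The count was 10 after scaling to equal sums outside the mitochondrial genome and 8 after quantile normalization. It fell when single libraries were left out, to 3, 4 and 7 without LV-NC replicate 1, 2 and 3, and to 7, 1 and 1 without LV-SNORA28 replicate 1, 2 and 3. Calls over all 12076 genes tested fell as well, from 1076 to 628, 488, 447, 446, 279 and 290 in the same order. Counts of the lists below with 1 library left out are to be read beside these totals. In RNA from bulk cultures, more cells in mitosis and more RNA per cell cannot be told apart.

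**Figure D2:**
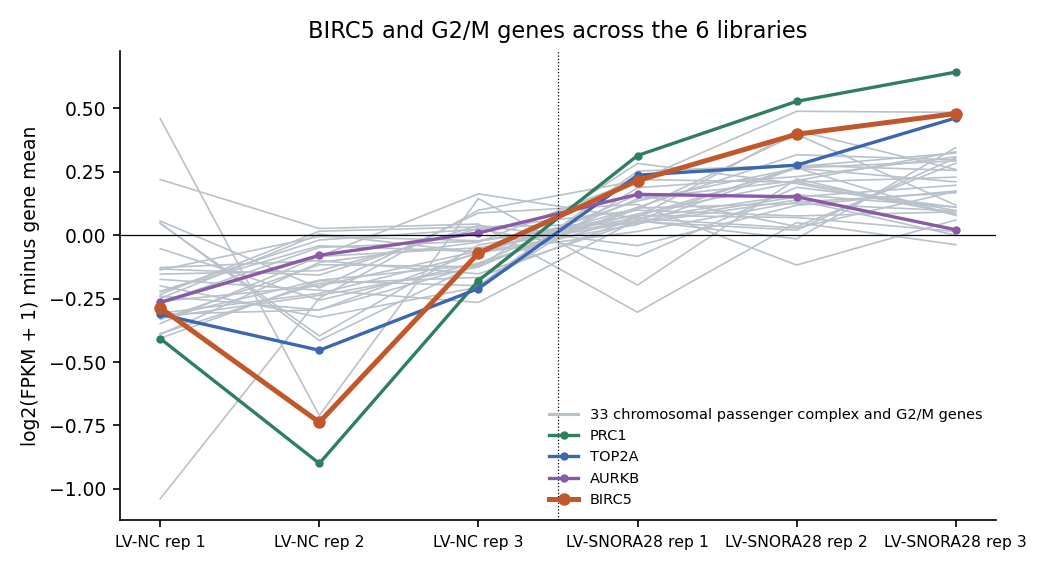
Log2(FPKM + 1) of each gene minus its own mean (y axis) in the 6 libraries (x axis), for BIRC5 (orange), PRC1 (green), TOP2A (blue), AURKB (purple) and the rest of the 33 chromosomal passenger complex and G2/M genes (grey). Lines join the values of 1 gene and imply no order of the libraries. BIRC5, PRC1 and TOP2A were lowest in LV-NC replicate 2 and highest in LV-SNORA28 replicate 3.

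BIRC5 was also compared with the mean of the 33 genes within each library, a measure that depends little on how libraries are scaled to each other. On the log2 scale it stood at -1.20, -1.66 and -1.14 in LV-NC and at -1.01, -0.93 and -0.85 in LV-SNORA28. Every LV-SNORA28 library was above every LV-NC library, the difference was 0.41, and a two-sided exact permutation gave p = 0.1, the lowest that 3 against 3 libraries can reach. Without LV-NC replicate 2 the difference was 0.24. The profile of BIRC5 over the 6 libraries was nearest to those of SEPTIN10, a septin (root mean square difference 0.0793 on the log2 scale), CDCA7L, a nuclear cell division cycle-associated protein (0.0852), and RNU1-103P, a small nuclear RNA pseudogene (0.106). Of the G2/M genes PRC1 (0.133) and TOP2A (0.139) were nearest, and the median over that list was 0.314 against 0.398 over all genes tested. These distances describe 6 libraries that share their groups.

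Many G2/M genes carry the cell cycle homology region, TTTGAA, in their promoters. Promoter windows of 250 bases before the start came from RefSeq on GRCh38.p14, and both strands were searched. BIRC5 had no window, so its promoter was not searched. These letters were found in 16 of the 25 G2/M genes with a window (64.0%), against 16.1% of all 27305 genes with one. Of the 8 genes that rose and had a window, 6 held them. The following stretches belong to the 4 of these nearest to BIRC5 in profile, are written along the strand of the gene, and show the match, on either strand, in capitals.
PRC1 (chr15:90994538-90994567, minus strand): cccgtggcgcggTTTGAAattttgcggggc
TOP2A (chr17:40418030-40418059, minus strand): ctgattggtttaTTCAAAcaaaccccggcc
ECT2 (chr3:172750599-172750628, plus strand): tcgttgggcttaTTTGAAacacacgcacaa
CCNB2 (chr15:59105105-59105134, plus strand): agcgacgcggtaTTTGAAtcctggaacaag

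BIRC2 and BIRC3 are neighbours on chromosome 11 and point the same way. BIRC3 (ENSG00000023445) spans 102317484 to 102339403 and BIRC2 (ENSG00000110330) 102347211 to 102378670 on GRCh38, with 7807 bases between them, both on the plus strand. BIRC3 is a known NF-kB target, and its upstream window is shown with the first of those of BIRC2 to let the pair be compared. Capitals mark matches to GGGNNNNNCC on either strand, of which some in BIRC2 overlap. This loose motif was found in 57.8% of all genes with a window and in all 15 of the NF-kB target genes with one.
BIRC3 (chr11:102317234-102317483, plus strand): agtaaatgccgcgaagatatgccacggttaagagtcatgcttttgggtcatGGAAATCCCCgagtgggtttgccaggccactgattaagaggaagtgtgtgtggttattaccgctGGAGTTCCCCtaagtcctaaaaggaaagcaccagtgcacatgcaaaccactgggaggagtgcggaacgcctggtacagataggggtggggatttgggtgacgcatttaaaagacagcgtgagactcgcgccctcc
BIRC2 (chr11:102346964-102347213, plus strand): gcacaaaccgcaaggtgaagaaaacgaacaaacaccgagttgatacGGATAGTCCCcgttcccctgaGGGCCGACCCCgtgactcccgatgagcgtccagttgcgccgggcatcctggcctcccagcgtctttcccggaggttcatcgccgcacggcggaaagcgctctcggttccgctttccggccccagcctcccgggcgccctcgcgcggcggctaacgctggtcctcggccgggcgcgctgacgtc
The BIRC3 window held 2 matches, 52.4% G and C, and 11 CpG sites, whereas the BIRC2 window held 4 matches at 3 positions, 1 of them read on both strands, 67.6% G and C, and 33 CpG sites. Windows were matched for BIRC2, BIRC3, BIRC6, XIAP and DIABLO, but not for BIRC5. Neither TTTGAA nor TTCNNNGAA, the core of STAT sites (8.09% of all genes with a window), was among the letters of these windows.

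BIRC2 was at 5.27, 7.4 and 8.29 FPKM under LV-NC, against 6.45, 6.38 and 12.67 FPKM under LV-SNORA28. LV-SNORA28 replicate 3 stood above the rest, and the other two LV-SNORA28 libraries lay inside the LV-NC range. The log2 fold change was 0.21 (SE 0.27, 95% interval -0.44 to 0.86, limma adjusted p = 0.664), and it was -0.09 without LV-SNORA28 replicate 3. The profiles nearest to BIRC2, those of TRIM8, DCTPP1 and TWNK, shared the high value in that library, with TRIM8 at 12.4 FPKM there and at 4.47 to 8.32 FPKM in the others.

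BIRC3 was low and steady, at 1.23, 1.03 and 1.04 FPKM under LV-NC, against 0.96, 1.07 and 1.2 FPKM under LV-SNORA28. The groups overlapped almost completely. The log2 fold change was -0.02 (SE 0.09), and its 95% interval of -0.23 to 0.20 was the narrowest of the members. BIRC2 exceeded BIRC3 between 4.28-fold and 7.97-fold in LV-NC and between 5.96-fold and 10.6-fold in LV-SNORA28. SLC49A4, SCD and RPL17 had the profiles nearest to BIRC3, each with an adjusted p above 0.05 in limma.

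BIRC2 and BIRC3 act with TRAF2, RIPK1 and MAP3K14 at the TNF receptor. TRAF2, the adaptor that recruits them, had a log2 fold change of 0.20 (limma adjusted p = 0.141). RIPK1, a kinase they ubiquitinate, had one of -0.15 (limma adjusted p = 0.297). MAP3K14, the kinase they mark for degradation, was at 5.37, 5.13 and 4.33 FPKM under LV-NC, against 4.19, 3.5 and 3.87 FPKM under LV-SNORA28. Its groups did not overlap, but its log2 fold change of -0.29 did not pass (limma adjusted p = 0.113). Of the 29 genes listed as TNF receptor complex partners, 25 were tested, 2 rose (8.00%) and 0 fell, against 6.81% and 2.10% of all genes tested. Those that rose were UBE2D1, a ubiquitin-conjugating enzyme (log2 fold change 0.46, limma adjusted p = 0.0223), and FADD, the adaptor of death receptors (0.41, limma adjusted p = 0.0484). Without LV-NC replicate 2 or 3 the count was 1, and without any of the other 4 libraries, 1 at a time, it was 0.

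Of 18 listed NF-kB target genes, 17 were matched and 10 were tested, of which 2 rose (20.0%), against 6.81% of all genes tested. IER3, an early response gene, and NFKB2, the precursor that the noncanonical pathway processes, had log2 fold changes of 0.75 and 0.30 (limma adjusted p = 0.0105 and 0.0212), and 0 of the 10 fell. The count of 2 became 1 without LV-NC replicate 3 or any 1 of the LV-SNORA28 libraries. CXCL8, a neutrophil chemokine below the filter, was at 0.36 to 0.42 FPKM under LV-NC, against 1.22 to 1.3 FPKM under LV-SNORA28 (log2 fold change 0.70, limma adjusted p = 0.0309 in the fit of all genes above 0, in which 1.21% of genes passed). The other chemokines of the list, CXCL1, CXCL2, CXCL3 and CCL20, did not pass in that fit (limma adjusted p = 0.718, 0.657, 0.740 and 0.8445). BIRC3, also an NF-kB target, was not among the genes that passed, as given above. The median log2 fold change of the list was 0.09, as was that of all genes tested.

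XIAP (ENSG00000101966; GRCh38 chromosome X, 123859712 to 123913972, plus strand) had the lowest mean of the members in LV-NC. It was at 0.75, 0.71 and 0.93 FPKM under LV-NC, against 1.97, 0.5 and 0.98 FPKM under LV-SNORA28. The LV-SNORA28 libraries held both the highest and the lowest value. In the fit of all genes above 0 the log2 fold change was 0.20 (SE 0.25, 95% interval -0.41 to 0.82, limma adjusted p = 0.732), and without LV-SNORA28 replicate 1 it was -0.06. ANG, GPX8 and METTL16 had the nearest profiles, with METTL16 at 5.45 FPKM in LV-SNORA28 replicate 1 and at 1.77 to 2.96 FPKM elsewhere. The pseudogene copies XIAPP2 and XIAPP3 were listed at 0 in every library, and XIAPP1 was above 0 in 1 library only, at 0.18 FPKM. XAF1, an interferon-induced antagonist of XIAP, was listed at 0 in all libraries.

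CASP9, the initiator activated by the apoptosome, which XIAP binds, had a log2 fold change of 0.22 and did not pass (limma adjusted p = 0.272). Of 17 listed caspases, apoptosome genes and antagonists, 14 were tested and 1 rose (7.14%), close to the 6.81% of all genes tested that rose. This was CASP6 (log2 fold change 0.51, limma adjusted p = 0.0162), and it no longer passed without LV-NC replicate 3 or without LV-SNORA28 replicate 1 or 3, which gave a count of 0. The median of the list was 0.02, against 0.09 over all genes tested.

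**Figure D3:**
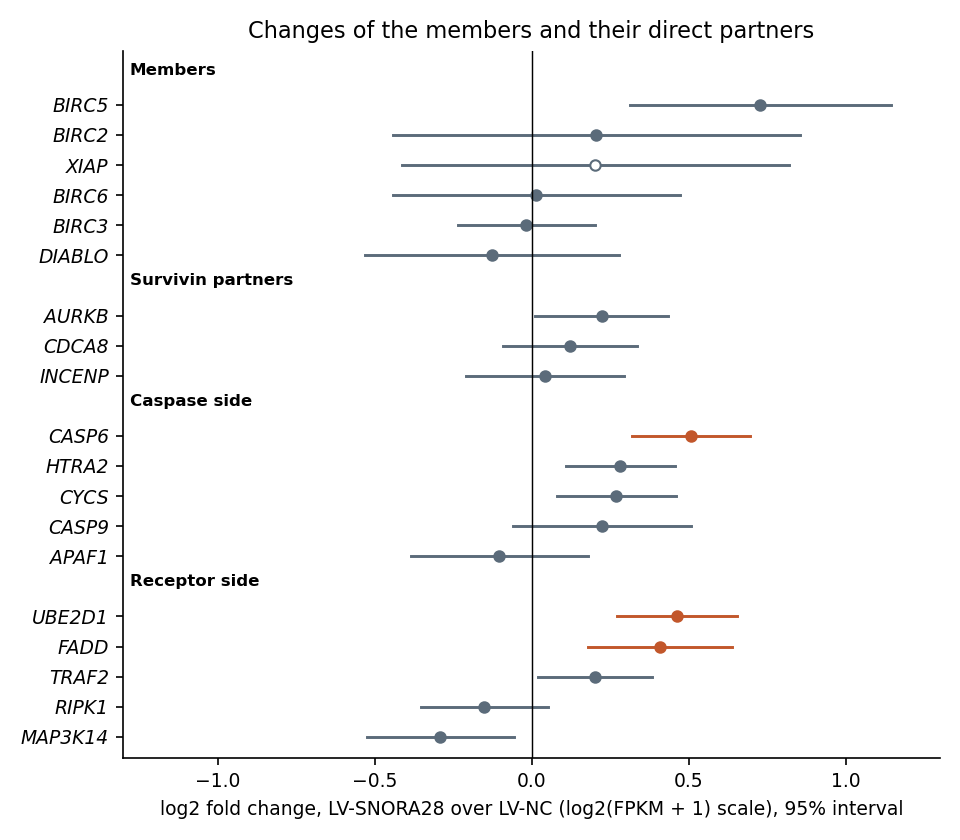
Log2 fold change of LV-SNORA28 over LV-NC on the log2(FPKM + 1) scale (x axis) for the members and for selected genes that act directly with them or passed the test in their lists (y axis). Points are estimates and lines their 95% intervals in limma, orange marks an adjusted p below 0.05, and the open point, XIAP, comes from the fit without a filter. The interval of BIRC5 runs from 0.31 to 1.15, and those of the other members include 0.

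DIABLO (ENSG00000184047; GRCh38 chromosome 12, 122207663 to 122227456, minus strand) was at 4.03, 6.74 and 5.63 FPKM under LV-NC, against 5.2, 5.22 and 4.16 FPKM under LV-SNORA28. All LV-SNORA28 values lay within the LV-NC range. The log2 fold change was -0.13 (SE 0.17, 95% interval -0.53 to 0.28, limma adjusted p = 0.673), and it was 0.02 without LV-NC replicate 2. B3GNT4, which overlaps DIABLO on the other strand, was at 0.47 to 1.65 FPKM. The nearest profiles were those of CYSTM1, NFS1 and ENSG00000260643.

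Other mitochondrial genes that act on the same side as DIABLO are HTRA2, a protease that also cleaves inhibitors of apoptosis, and CYCS, cytochrome c, which starts the apoptosome with APAF1. HTRA2 was at 7.46, 7.52 and 7.73 FPKM under LV-NC, against 10.29, 9.18 and 8.85 FPKM under LV-SNORA28. CYCS was at 28.09, 31.65 and 33.03 FPKM under LV-NC, against 35.37, 39.11 and 37.83 FPKM under LV-SNORA28. The groups of both genes did not overlap, as was so for 35.1% of all genes tested. Neither log2 fold change, 0.28 and 0.27, passed (limma adjusted p = 0.0612 and 0.0835). ENDOG, in the list of caspases, apoptosome genes and antagonists, was lower, also without overlap (log2 fold change -0.24, limma adjusted p = 0.124). AIFM1 of that list had a log2 fold change of -0.05 (limma adjusted p = 0.685). APAF1 had a log2 fold change of -0.10 (limma adjusted p = 0.613).

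DIABLO was also divided by the summed FPKM of BIRC2, BIRC3 and XIAP. BIRC5 and BIRC6, which also carry BIR domains, were not in this sum. The ratio was 0.556, 0.737 and 0.549 in LV-NC and 0.554, 0.657 and 0.280 in LV-SNORA28. The groups overlapped, and the lowest ratio was in LV-SNORA28 replicate 3, the library with the highest BIRC2. Without that library the difference of the means, -0.12 over all 6 libraries, was -0.01.

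BIRC6 (ENSG00000115760; GRCh38 chromosome 2, 32357023 to 32619571, plus strand) was at 6.87, 4.03 and 6.2 FPKM under LV-NC, against 5.81, 4.68 and 6.61 FPKM under LV-SNORA28. The means were 5.70 ± 1.48 and 5.70 ± 0.970 FPKM (SD, n = 3), and the log2 fold change was 0.02 (SE 0.19, 95% interval -0.44 to 0.47, limma adjusted p = 0.968). Replicate 2 was the lowest library of each group. The nearest profiles were those of HELZ, DYNC1H1 and VPS13B, which had the same low libraries. BIRC6 has the longest transcript of the members, 16190 bases. The 974 tested genes with a longest transcript of at least 8000 bases, a class chosen after the values were seen, had a median of -0.20 in LV-NC replicate 2 relative to each gene's own mean, and between -0.01 and 0.12 in the other libraries. The part of this in the values of BIRC6 was not tested. UBA6, the enzyme that charges BIRC6 with ubiquitin, had a log2 fold change of 0.20 (limma adjusted p = 0.155). USP8 and RNF41, which regulate BIRC6, had values of 0.09 and 0.03 and did not pass (0 of 3 genes).

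STAT3, the transcription factor through which the study followed survivin, was at 6.52, 6.06 and 6.05 FPKM under LV-NC, against 9.83, 8.97 and 9.95 FPKM under LV-SNORA28. It rose by 0.55 on the log2 scale (SE 0.07, limma adjusted p = 0.00986). This is a transcript level. The study measured STAT3 activation as phosphorylation and nuclear location of the protein, which these data do not show. Of 12 listed STAT3-linked genes, all tested, 3 passed the test (25.0%), against 8.91% of all genes tested. STAT3 itself is in this list and is 1 of the 3. JUNB, an AP-1 subunit, rose by 0.60 (limma adjusted p = 0.00760), and CCND1, cyclin D1, fell by 0.55 (limma adjusted p = 0.00583). The STAT3-linked genes that passed moved in both directions, and the median of the list was 0.10 against 0.09 over all genes tested. The count was 3 or 4 with any 1 library left out.

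**Figure D4:**
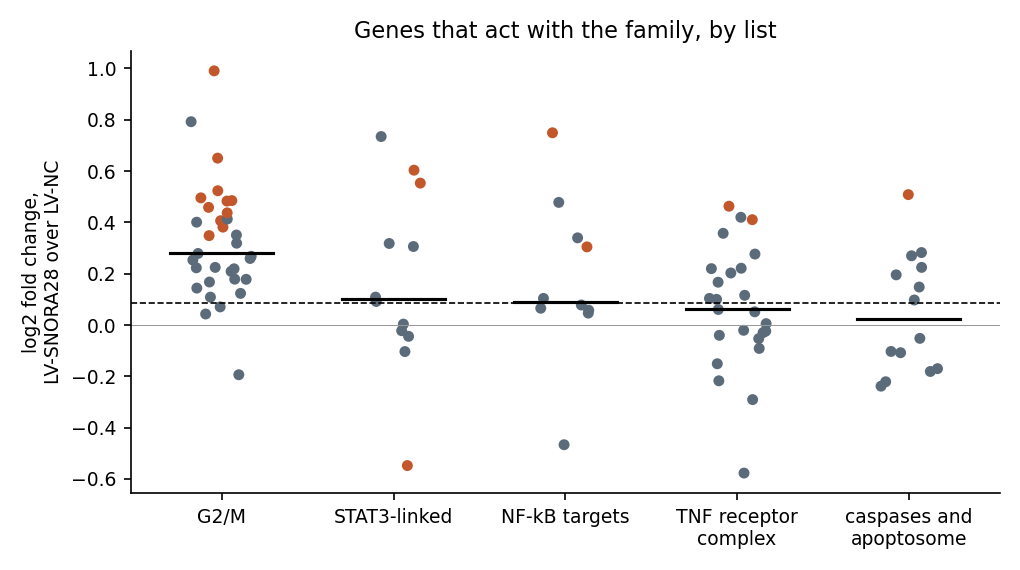
Log2 fold change of LV-SNORA28 over LV-NC (y axis) for each tested gene in 5 lists of partner, cell cycle, pathway and target genes (x axis). Not all of these genes act directly with the family. Each point is a gene, orange where the limma adjusted p was below 0.05, solid bars are list medians and the dashed line is the median of all 12076 genes tested, 0.09. The G2/M list has the highest median, 0.28, and the other medians lie between 0.02 and 0.10.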

How the data were processed

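The 6 poly(A)-selected, dUTP-stranded RNA libraries of HCT116 cells were divided, by their titles, into 3 of LV-NC and 3 of LV-SNORA28. The authors deposited 1 table per library of FPKM values. The submitters' processing notes name cutadapt 1.9, HISAT2 2.2.1, StringTie 2.1.6 and the build hg38. They also name DESeq2 and edgeR, which test counts and were not run here on FPKM. Their settings are not given in the sources used here. Read depth is unknown, so no counting interval is given, and FPKM of any gene moves with the share taken by abundant transcripts.

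Symbols and coordinates came from GENCODE release 44 (60401 of 60612 identifiers matched), and promoter windows from RefSeq. Genes averaging 1 FPKM or more were tested on log2(FPKM + 1) with limma 3.58.1 in R 4.3.3 (lmFit and eBayes with a trend, two-sided, Benjamini-Hochberg over all genes tested). The fit was also run on simulated independent values with no shifts shared within a library. That run does not bear on such shifts in these data. Within-library differences were tested by exact permutation over libraries. The members and lists were chosen with earlier results of these data known. Genes named were the members, SNORA28, the other family genes, direct partners, MKI67, up to 5 genes per list with the smallest adjusted p below 0.05, and the 3 nearest profiles of each member. Some direct partners are not reported here. PRC1, CCNB2, ENDOG, AIFM1, CXCL8 and the other chemokines of its list were named after their values were seen. The same holds for the pseudogene copies and overlapping genes of members. Alternatives were other filters, pseudocount, scaling, variance trend, a replicate block and each library left out. Equal replicate numbers were not taken as pairs in the main fit.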

Additional observations from a re-analysis of the deposited data

How the results depend on the processing

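With the 6241 genes of at least 5 FPKM, BIRC5 passed (log2 fold change 0.73, limma adjusted p = 0.0387) and the count of members called was 1 in place of 0. Under all other alternatives BIRC5 kept its direction without passing, at 0.54 to 0.88 with 1 library left out (limma adjusted p = 0.0508 to 0.155) and with a limma adjusted p of 0.135 over the 32761 unfiltered genes. At the threshold of the study, leaving out 1 library gave 0 to 1 members. Signs of members that did not pass turned as follows. BIRC6 was at -0.084 after quantile normalization, at -0.00769 with equal sums over genes outside the mitochondrial genome, and at -0.178, -0.00141 and -0.0815 without LV-NC replicate 2 and LV-SNORA28 replicates 1 and 3. BIRC2 was at -0.0878 without LV-SNORA28 replicate 3, XIAP at -0.0581 without LV-SNORA28 replicate 1, DIABLO at 0.0157 without LV-NC replicate 2, and BIRC3 at 0.0276 and 0.0245 without LV-NC replicate 1 or LV-SNORA28 replicate 1. With 1 library left out, the values farthest from these were 0.357 for BIRC2, -0.0588 for BIRC3, 0.145 for BIRC6, 0.435 for XIAP and -0.295 for DIABLO. The cause was not tested. The G2/M count of 11 was 3 among the 32761 unfiltered genes and 1 to 7 with 1 library left out. The TNF receptor list gave 1 with no variance trend, either rescaling or the higher filter, 0 without a filter, and 0 to 1 with 1 library left out. The NF-kB list gave 1 to 2 and the caspase list 0 to 1 with 1 library left out. BIRC5 relative to the G2/M genes was 0.24 to 0.50, and the ratio of DIABLO differed by -0.197 to -0.0085, with 1 library left out. Over all genes, calls ranged from 279 to 628 with 1 library left out, and were 397 without a filter.

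Libraries with the same replicate number were not treated as pairs. Their deviations from their groups had correlations of -0.04, 0.09 and 0.01, which cannot exclude a pairing, since libraries with different numbers were not compared. With a replicate block, calls over all genes were 510 in place of 1076. BIRC5 then had a limma adjusted p of 0.0737, the G2/M list 6 calls, the TNF receptor list 0 and the NF-kB list 1. Depth is unknown, which limits low genes such as XIAP and BIRC3 most.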
